A study of Rattus norvegicus with 54 samples.

Results

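The messages for the cytosolic ribosomal proteins and translation factors are represented here by 101 of the 15866 non-control probe sets of a rat expression array. They are the probe sets of the authors' 3 gene lists whose title contains ribosomal protein, eukaryotic translation or tRNA synthetase and does not contain mitochondrial or kinase. By role they comprise 40 probe sets for large subunit proteins and 27 for small subunit proteins, together 67 for ribosomal proteins, 19 for initiation factors, 3 for elongation and termination factors and 8 for aminoacyl-tRNA synthetases. The remaining 4 are Eif4ebp1, an inhibitor of initiation, Ago1, an argonaute listed under an old initiation factor name, Mrto4, a P0-like protein, and Mrps7, a mitochondrial ribosomal protein that the rule kept because its title is misspelt. One symbol is given for 89 members, 11 carry several symbols and 1 carries none. Members without a single symbol are called here by their title, as in Rps4-titled. The authors chose their lists on these arrays, and 100 members come from the gubernaculum list, so the direction in which the members move together is not independent evidence.

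RNA was taken from the gubernaculum, the fetal ligament that guides descent of the testis, and from the testis of LE/orl rats, a strain with inherited cryptorchidism, and of LE/wt rats, its wild type counterpart. Male LE/orl left gubernacula were collected at gestational days (GD) 18, 19 and 20 (4 arrays each) and right gubernacula at GD20 (3 arrays). The LE/wt males had the same days, sides and numbers. LE/wt females at GD18 gave 4 further arrays, each with both gubernacula of 1 fetus, and every other array held 1 organ of 1 fetus. Left testes of LE/orl and LE/wt males were collected at GD17 and GD19 with 5 arrays per group, which makes 54 one-colour arrays in 13 groups. No fetus was treated. Gubernaculum RNA was labelled through 2 amplification cycles and testis RNA through 1, so levels were not compared between the tissues. Values are log2 signals, and 1 unit is a change by a factor of 2. Levels were compared between probe sets only to set a minimum signal and to pick the strongest signals at GD18.

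A ribosome is built from a large and a small subunit, each a shell of many small proteins around ribosomal RNA, and the genes of these proteins are usually expressed together at high levels in growing tissue. Translation starts when the cap-binding complex of Eif4e, the scaffold Eif4g and the helicase Eif4a brings a small subunit loaded with eIF3 and eIF2 to an mRNA. Elongation factors then move the ribosome along, and aminoacyl-tRNA synthetases charge the tRNAs it reads. Messages of ribosomal proteins begin with a run of pyrimidines, the terminal oligopyrimidine tract, through which their translation is adjusted to growth signals.

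Such a run was visible at the annotated start of many members. The windows below span 30 bases before to 20 bases from the start, on the gene's strand, from the RefSeq promoters of the rat build GRCr8. They are shown because the ribosomal protein genes and the scaffold or helicase genes of initiation differed in opposite directions between the strains at GD18. Capitals mark a run of at least 5 pyrimidines counted from a C within 5 bases of the start, and other pyrimidines can precede it.
Rps15, chr7:10068096-10068145, minus strand: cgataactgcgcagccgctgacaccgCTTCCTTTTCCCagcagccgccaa
Rps10, chr20:5700725-5700774, minus strand: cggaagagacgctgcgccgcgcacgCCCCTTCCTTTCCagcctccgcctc
Rpl29, chr8:115947613-115947662, plus strand: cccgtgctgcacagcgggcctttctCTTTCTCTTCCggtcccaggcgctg
Rpl35a, chr11:81235002-81235051, minus strand: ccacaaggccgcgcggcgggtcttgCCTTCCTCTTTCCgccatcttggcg
Eif3k, chr1:93397468-93397517, minus strand: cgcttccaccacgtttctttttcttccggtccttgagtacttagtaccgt
Eif4a1, chr10:54888583-54888632, minus strand: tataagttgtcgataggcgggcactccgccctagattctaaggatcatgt
Eif4g1, chr11:93746348-93746397, minus strand: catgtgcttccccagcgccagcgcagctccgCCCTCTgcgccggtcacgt
The run was 12 bases long in Rps15, 13 in Rps10, 11 in Rpl29 and 13 in Rpl35a. It was 6 bases in Eif4g1. Eif3k and Eif4a1 had no run by this definition, although the Eif3k window holds a longer stretch of pyrimidines that ends shortly before the start.

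Promoters were matched by symbol for 65 of the 85 different symbols. A run was present in 24 of the 41 ribosomal protein promoters (58.5%), which belong to 40 genes, in 4 of the 18 promoters of initiation, elongation and termination factors (22.2%) and in 1 of the 6 synthetase promoters (16.7%). Among all 33469 promoters of the build 17.0% had one. The letters CTTTCC on the sense strand, which can overlap the run, stood within 30 bases before to 50 bases after the start in 41.5% of the ribosomal protein promoters and in 3.45% of all promoters. CCGGAAG on either strand of the whole promoter entry was present in 29.3% of the ribosomal protein promoters, in 66.7% of the synthetase promoters and in 8.75% of all. These matches describe the letters only. The ribosomal protein genes with a run had a median strain difference of -1.44 log2 units at GD18 (24 genes) and the other 16 genes one of -1.31.

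The arrays differed in the log2 signal at the 5′ end minus that at the 3′ end of the actin and GAPDH control probe sets, which depends on RNA integrity and on how far labelling reached along each message. This index was -7.23 to -6.06 on 13 LE/orl gubernaculum arrays and -4.73 to -3.46 on the 19 LE/wt gubernaculum arrays. The exceptions were LE/orl GD18 array A, at -4.16, and GD19 array D, at -4.32, which the authors left out of their own group means. Over the probe sets that are no members, both of these arrays were most like the LE/wt females (correlation 0.458 and 0.541 with that group's deviation) and unlike their own groups (-0.267 and -0.227). Testis arrays lay between -1.53 and -1.0. At GD20 the index and the strain cannot be told apart. Values from a fit with the index as a covariate, the index-adjusted fit, are given below. They cover the strain counts and the members named at GD18 and GD19. Within LE/orl only GD18 A and GD19 D had an index near that of LE/wt. The fit used the same slope for the index in all gubernaculum groups, so on every day, GD20 included, the adjustment leans mostly on these arrays. A call kept, lost or reversed in this fit therefore does not separate strain from index. In whole organs, fewer cells of a type and less RNA per cell cannot be told apart either. The mean log2 signal of striated muscle markers was 9.82 to 12.28 over the gubernaculum arrays. That of Leydig cell markers was 8.06 to 10.69 over the testis arrays and 2.75 to 4.01 over the gubernaculum arrays. Testis arrays LE/wt GD19 D and LE/orl GD17 D stood apart in the muscle markers, at 7.19 and 4.84 against at most 3.45 on the others.

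The ribosomal protein signal of the gubernaculum was lower in LE/orl than in LE/wt males on each day. The mean over the 67 ribosomal protein probe sets was 11.55 ± 0.56 at GD18, 11.56 ± 0.45 at GD19 and 11.48 ± 0.19 at GD20 in LE/orl left gubernacula (SD, n = 4 each). In LE/wt it was 13.01 ± 0.09 at GD18, 13.11 ± 0.11 at GD19 and 12.50 ± 0.05 at GD20. By array, LE/orl GD18 read 12.38, 11.37, 11.17 and 11.27, and no LE/orl array reached the lowest LE/wt male array of its own day. The right gubernacula at GD20 gave 11.52 ± 0.17 in LE/orl and 12.47 ± 0.07 in LE/wt (SD, n = 3 each). LE/wt females had 12.19 ± 0.07 (n = 4), below LE/wt males of the same day. In the testis the 4 groups lay together, between 12.55 and 12.68 over the 20 arrays.

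**Figure D1:**
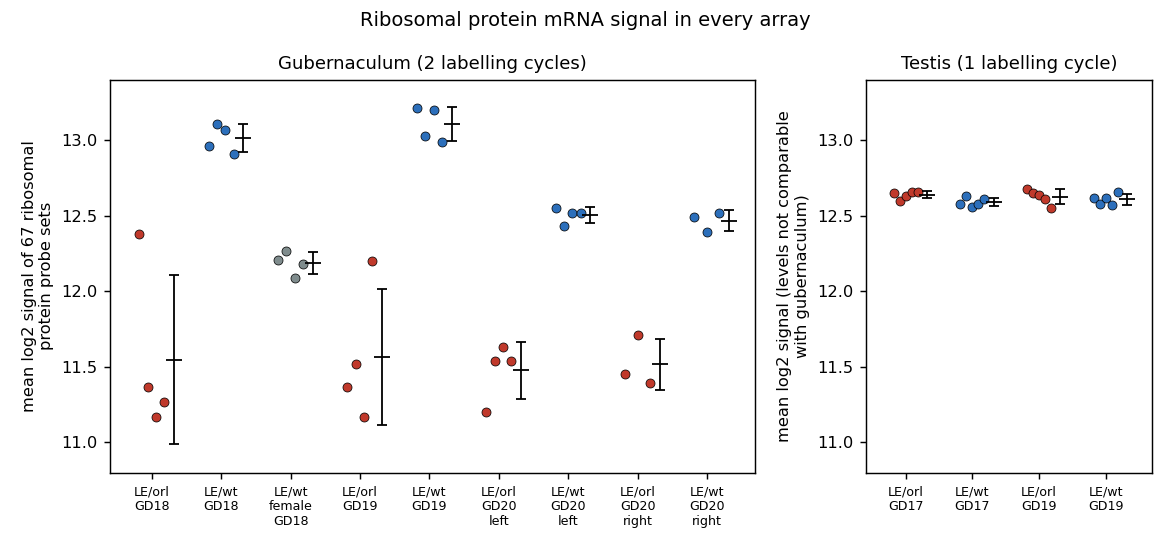
Mean log2 signal of the 67 ribosomal protein probe sets in every array, with LE/orl in red, LE/wt males in blue and LE/wt females in grey; bars give the mean ± SD of a group. LE/wt males at GD18 and GD19 sit between 12.91 and 13.21, 13 LE/orl gubernaculum arrays between 11.17 and 11.71, and LE/orl GD18 A (12.38) and GD19 D (12.20) between them; testis arrays stay within 12.55 to 12.68.

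At GD18, 80 of the 101 members were lower and 11 higher in LE/orl than in LE/wt males (limma, adjusted p under 0.05), against 24.1% lower and 27.2% higher of the 8872 probe sets tested. Of the probe sets on the authors' lists, from which the members come, 37% were lower and 39.6% higher. Members had a median difference of -1.15 log2 units and all probe sets tested one of 0.06. Among ribosomal proteins, 62 of 67 fell and 1 rose, with a median of -1.44, which is 2.71-fold lower. The small subunit gave 26 lower of 27 and the large subunit 36 lower and 1 higher of 40. In 50 ribosomal protein probe sets the LE/orl and LE/wt arrays did not overlap, with LE/orl lower, against 17.6% of all probe sets. Ribosomal proteins are among the strongest signals on these arrays. Of the 56 with a mean of at least 12 in LE/wt, 92.9% were lower in LE/orl, and of the 225 other probe sets that strong, 40% were lower and 16.4% higher. Both sets were picked by level in the LE/wt group compared, which favours lower values in LE/orl. The 225 were not limited to the authors' lists, so the shares are not like for like. With the index as a covariate, 29 members were lower and 9 higher, and the ribosomal protein median was -0.44. The shares of all probe sets in this fit stand with the lists below. Members were called lower more often than these and higher less often. Among the ribosomal protein probe sets with 1 symbol 51 of 56 were lower. Ribosomal protein genes have many near-identical copies, and the share of a signal that comes from a copy is not known here.

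Rps15, a small subunit protein of the head domain, read 11.70, 9.47, 8.49 and 9.71 in LE/orl and 13.11, 13.17, 13.73 and 13.15 in LE/wt males at GD18. Every LE/orl array was below every LE/wt array, and array A was nearest. The difference was -3.45 ± 0.52 (SE, limma adjusted p = 4.38e-06). Rps10, also a protein of the small subunit, read 11.84, 9.03, 8.85 and 9.32 in LE/orl and 13.27, 13.08, 13.19 and 13.08 in LE/wt, a difference of -3.40 ± 0.51 (limma adjusted p = 4.00e-06). Again array A alone came within 2 units of LE/wt. Without array A these differences were -4.06 and -4.09, and with the index as a covariate -1.23 (limma adjusted p = 0.0198) and -1.03 (0.00871). Rps4-titled read 5.91, 3.59, 2.91 and 2.98 in LE/orl and 7.96, 7.84, 8.46 and 8.18 in LE/wt. Its difference was the most negative of all members, at -4.26 ± 0.42 (limma adjusted p = 6.23e-09). However, 3 of its LE/orl values lay under the minimum signal of 5, where values carry little information on level. The index-adjusted difference was -2.85.

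In the large subunit, Rpl29 read 10.82, 10.13, 9.60 and 10.29 in LE/orl and 12.53, 12.97, 12.93 and 12.62 in LE/wt (-2.55 ± 0.27, limma adjusted p = 1.96e-08). Rpl35a read 12.42, 11.64, 11.66 and 11.81 in LE/orl and 13.60, 13.60, 13.66 and 13.74 in LE/wt (-1.77 ± 0.21, limma adjusted p = 8.39e-08). The index-adjusted differences were -2.03 and -1.41. The groups were apart in both, and these 2 had the lowest p of the large subunit. The same rule gave Rps4-titled and Rpsa-titled in the small subunit, with Rpsa-titled at -1.52 ± 0.18 (limma adjusted p = 1.02e-07). Rpsa, the laminin receptor precursor that is also a small subunit protein, was lower by both of its probe sets, at -2.53 (1367569_at) and -1.20 (1388244_s_at). After adjustment for the index 1367569_at was no longer called (-0.50, limma adjusted p = 0.246) and 1388244_s_at was at -0.73.

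Outside the 62, the 5 ribosomal protein probe sets were Rpl30, Rpl32, Rpl4, Rps3 and 1 of the probe sets of Rpl7. Rpl30, a small protein at the subunit interface, read 13.90, 14.24, 13.98 and 14.00 in LE/orl and 13.24, 13.34, 13.47 and 13.33 in LE/wt males. It was the 1 ribosomal protein that rose, by 0.69 ± 0.14 (SE, limma adjusted p = 1.44e-04), with the groups apart. Rpl32 read 14.95, 15.17, 14.91 and 15.03 in LE/orl and 14.94, 15.04, 15.01 and 14.98 in LE/wt, and the 95% interval of its difference ran from -0.21 to 0.25. Rpl4 differed by -0.27 (95% interval -0.65 to 0.12) and Rps3 by -0.29 (-0.58 to 0.01). Without array A, Rpl4 and Rps3 were called lower, at -0.53 and -0.45. Index-adjusted, Rpl30 was at 0.71, Rps3 at 0.00 and Rpl4 at 0.49 (limma adjusted p = 0.0216), the opposite sign.

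The 2 probe sets of Rpl7 disagreed. Probe set 1398917_at read 13.43, 12.28, 11.84 and 12.35 in LE/orl and 13.66, 13.81, 13.82 and 13.77 in LE/wt at GD18, a difference of -1.29 ± 0.26 (limma adjusted p = 1.34e-04), or -0.32 (0.323) with the index as a covariate. Probe set 1375788_at read 5.82, 10.79, 12.22 and 10.92 in LE/orl and 8.05, 8.40, 7.63 and 7.78 in LE/wt. Its LE/orl array A was below and the other 3 above every LE/wt array. The difference was 1.97 ± 1.01 (limma adjusted p = 0.103) over 4 arrays, 3.34 (limma adjusted p = 0.00174) without array A and 1.21 without array C. With the index as a covariate it was -2.28 (limma adjusted p = 0.0299). At GD20 the same probe set read 11.88, 10.63, 9.89 and 10.77 in LE/orl left gubernacula and 5.17, 5.51, 5.91 and 6.07 in LE/wt. What it detects besides Rpl7 is not given in the files.

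**Figure D2:**
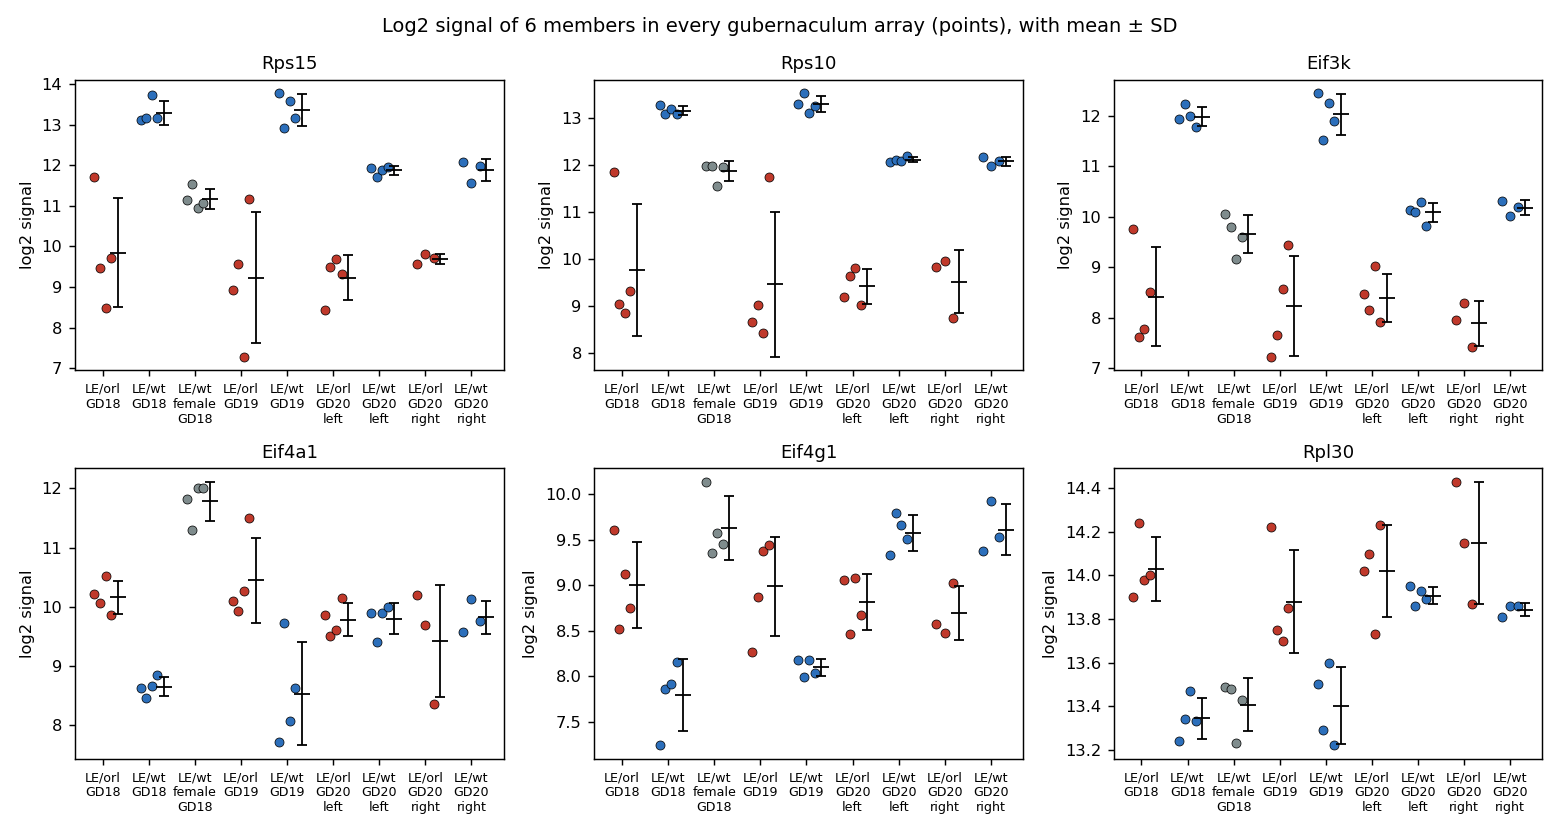
Log2 signal of Rps15, Rps10, Eif3k, Eif4a1, Eif4g1 and Rpl30 in every gubernaculum array (LE/orl red, LE/wt males blue, LE/wt females grey), with mean ± SD of each group. LE/orl points lie below LE/wt males of the same day in Rps15, Rps10 and Eif3k, while at GD18 Eif4a1 (9.86 to 10.52 against 8.46 to 8.85), Eif4g1 and Rpl30 lie above.

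Initiation factors were called in both directions at GD18. Of the 19 probe sets, 10 were lower and 8 higher in LE/orl (24.1% and 27.2% of all probe sets tested). All 4 subunits of eIF3, the complex that holds the small subunit ready for mRNA, were lower, with a median of -1.38. Eif3k read 9.76, 7.62, 7.77 and 8.52 in LE/orl and 11.93, 12.23, 11.99 and 11.78 in LE/wt males, so that no arrays overlapped, and differed by -3.57 ± 0.38 (limma adjusted p = 2.08e-08). Eif3g read 11.16, 9.95, 9.97 and 10.18 in LE/orl and 11.99, 12.14, 12.20 and 12.11 in LE/wt (-1.80 ± 0.22, limma adjusted p = 2.09e-07). Eif3f and Eif3h differed by -0.97 and -0.75. Eif2b2 and Eif2b4, subunits of the exchange factor that recharges eIF2, were lower by -0.99 and -0.85 log2 units. When adjusted for the index, Eif3k (-2.33), Eif3g (-1.05) and Eif3f (-0.90) were still called. Eif3h (-0.10, limma adjusted p = 0.776), Eif2b2 (-0.55, 0.0678) and Eif2b4 (-0.36, 0.235) were not.

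Of the 10 probe sets for eIF4 proteins, 6 were higher and 3 lower, with a median of 0.60. Eif4a1, the main helicase, read 10.21, 10.06, 10.52 and 9.86 in LE/orl and 8.62, 8.46, 8.66 and 8.85 in LE/wt males at GD18, a difference of 1.52 ± 0.35 (SE, limma adjusted p = 7.92e-04). Eif4g1, the main scaffold, read 9.61, 8.52, 9.13 and 8.75 in LE/orl and 7.24, 7.86, 7.92 and 8.16 in LE/wt (1.21 ± 0.25, limma adjusted p = 1.98e-04). In both, every LE/orl array exceeded every LE/wt array, array A included. Eif4a2, the second helicase, was higher by 0.96 ± 0.22 (limma adjusted p = 7.83e-04). Eif4g3 was higher by 1.24 ± 0.27 (limma adjusted p = 4.43e-04), with array A, at 7.87, inside the LE/wt range of 7.58 to 7.96, and by 1.63 without that array. Eif4g2, a scaffold that does not bind Eif4e, was higher by both probe sets (0.67 and 0.53), and the call of the smaller one was lost without LE/wt array A (limma adjusted p = 0.0622) or LE/orl array D (0.0554). After adjustment for the index, 4 of the 10 were higher and 0 lower. Eif4a1 was then at 2.10, Eif4g1 at 1.58 and Eif4a2 at 1.48, while Eif4g3 was not called (0.22, limma adjusted p = 0.548).

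Eif4e, the cap-binding protein itself, was lower by -0.44 log2 units and its relative Eif4e2 by -0.85, with overlapping arrays. The probe sets of Eif4b, a helper of the helicase, disagreed: 1371404_at differed by 0.22 (limma adjusted p = 0.336) and 1372124_at by -1.02 (0.0196). The call of 1372124_at was lost without LE/wt array C or without LE/orl array B, C or D, with adjusted p between 0.0628 and 0.0866. Eif2s3, the subunit of eIF2 that carries the initiator tRNA with GTP, read 9.07, 9.66, 9.01 and 9.15 in LE/orl and 7.69, 8.07, 7.85 and 7.97 in LE/wt. The groups were apart and differed by 1.33 ± 0.22 (limma adjusted p = 1.61e-05). Eif5a, which helps ribosomes over difficult peptide bonds, was lower by -1.42 with overlapping arrays. Index-adjusted, Eif2s3 was at 1.37, and Eif4e (-0.23, limma adjusted p = 0.336), Eif4e2 (0.27, 0.358), Eif4b (1372124_at; 0.42, 0.331) and Eif5a (-0.13, 0.813) were not called.

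**Figure D3:**
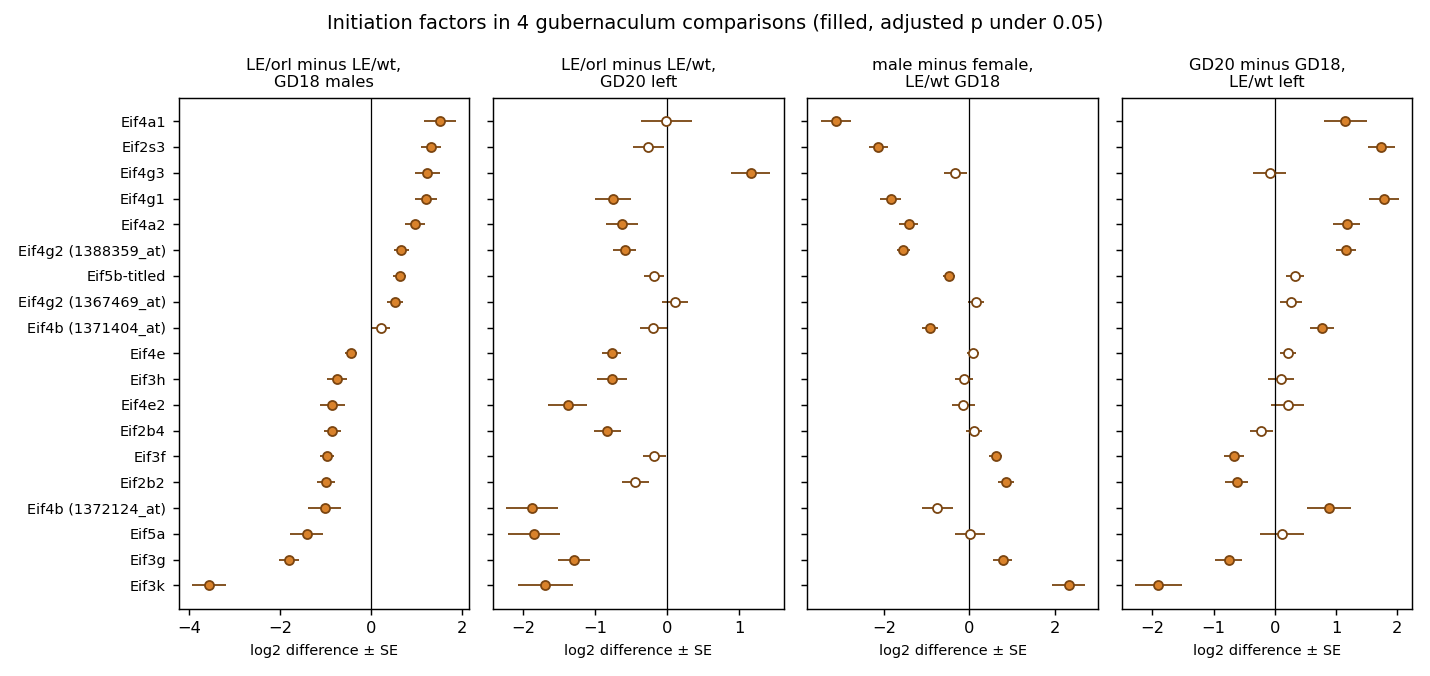
Log2 difference ± SE of the 19 initiation factor probe sets in 4 gubernaculum comparisons, in the order of the strain difference at GD18; filled points passed an adjusted p under 0.05. Eif4a1, Eif2s3 and Eif4g1 are positive between strains at GD18 (1.52, 1.33 and 1.21), negative between the sexes and positive between GD20 and GD18 in LE/wt, while Eif3k runs the other way in all 3; these comparisons share the LE/wt GD18 male arrays.

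Eif4ebp1, which binds Eif4e and keeps it from the scaffold until it is phosphorylated, had the lowest p of all members at GD18. It read 6.07, 5.65, 5.53 and 6.19 in LE/orl and 8.32, 8.47, 8.72 and 8.23 in LE/wt males (-2.57 ± 0.20, limma adjusted p = 1.83e-10), and -2.35 with the index as a covariate. At GD20 it read 6.28, 6.15, 6.55 and 6.38 in LE/orl left gubernacula and 6.52, 6.35, 6.49 and 6.59 in LE/wt, which overlap, with a 95% interval of the difference from -0.57 to 0.26. LE/wt females at GD18, with 6.29, 6.59, 6.26 and 6.44, were at the level of the LE/wt males of GD20.

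Among the 3 elongation and termination factors, Eef1d, part of the factor that reloads the tRNA carrier, read 10.13, 8.97, 9.07 and 8.55 in LE/orl and 10.55, 10.76, 10.58 and 10.66 in LE/wt at GD18 (-1.46 ± 0.26, limma adjusted p = 3.82e-05). Etf1, the release factor, was lower by -0.54 ± 0.19 (limma adjusted p = 0.0192) with overlapping arrays, and lost its call without LE/wt array A (0.0624), LE/orl array B (0.0722) or LE/orl array D (0.107). Eef2, the translocation factor, differed by 0.33 (0.238). Of the 8 aminoacyl-tRNA synthetases, 4 were lower and 1 higher. Farsa, which charges the phenylalanine tRNA, read 7.96, 6.49, 6.02 and 6.28 in LE/orl and 8.17, 8.38, 8.87 and 8.38 in LE/wt (-1.76 ± 0.34, limma adjusted p = 8.33e-05). Sars1, for serine, was lower by -1.40 ± 0.30 (3.84e-04), with array A at 9.69 inside the LE/wt range of 9.58 to 9.91. Aars1, for alanine, was the one that rose, by 0.60. When adjusted for the index, Eef1d (-0.54, limma adjusted p = 0.116), Etf1 (-0.29, 0.403), Farsa (-1.02, 0.0646), Sars1 (-0.27, 0.506) and Aars1 (0.13, 0.691) were not called, and Eef2 was called higher (0.92, 0.0124). Without array A Sars1 was at -1.85. Of the others outside these roles, Mrps7 was lower by -1.85, Ago1 higher by 0.90 (-0.43 and not called when adjusted for the index) and Mrto4 at 0.05 (95% interval -0.33 to 0.43).

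LE/orl GD18 array A carried less of these differences than the other 3 arrays of its group. Its median difference from LE/wt over the 67 ribosomal proteins was -0.43, with 52 of them (77.6%) below every LE/wt male array, against 34.8% of all probe sets tested. The other 3 arrays had a median of -1.67, and in 63 of 67 (94%) all 3 were below every LE/wt array, against 29.4% of all. GD19 array D had a median of -0.51 with 56 below (83.6%, against 37.1% of all), and its 3 companions -1.68 with 64 below (95.5%, against 26.5%). Over the initiation factors GD18 array A was at 0.28 and its companions at -0.61. The index of array A lay within the range of the LE/wt GD18 males (-4.23 to -3.73), and that of array D below the LE/wt GD19 males (-3.92 to -3.59). A fit without both arrays called 82 members lower at GD18 and 83 at GD19, with 12 higher on each day. The share of all probe sets called in that fit is not given here, so these counts are not set against it.

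**Figure D4:**
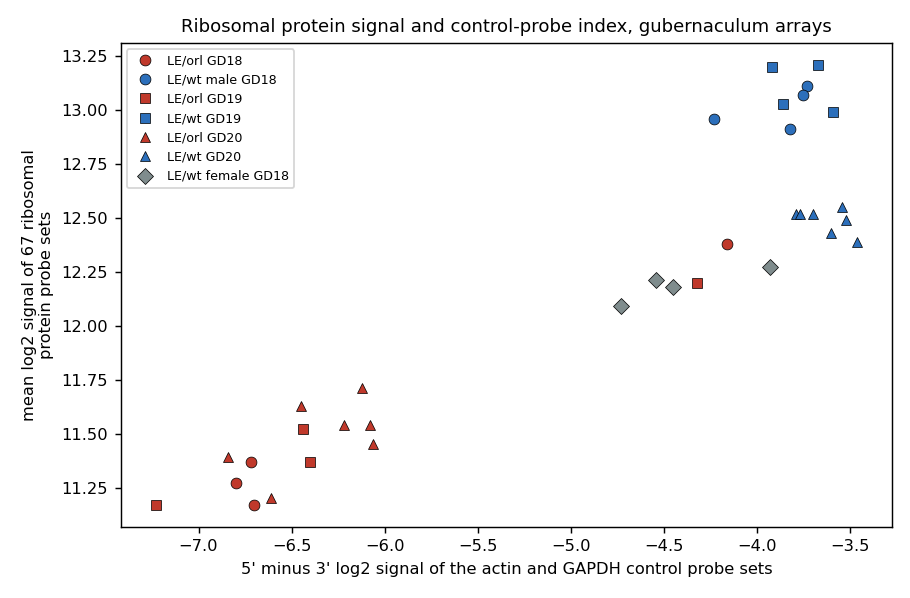
Mean log2 signal of the 67 ribosomal protein probe sets against the 5′ minus 3′ log2 index of the control probe sets, 1 point per gubernaculum array (LE/orl red, LE/wt males blue, LE/wt females grey diamonds). The 13 LE/orl arrays with an index of -7.23 to -6.06 read 11.17 to 11.71; LE/orl GD18 A and GD19 D (12.38 and 12.20) sit beside the females (12.09 to 12.27) and below the LE/wt males of GD18 and GD19, whose index overlaps theirs or is higher.

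At GD19 the counts were close to those of GD18, with 80 members lower and 10 higher, against 25.9% lower and 26.6% higher of all probe sets. Ribosomal proteins gave 62 lower and 1 higher, with a median of -1.48, and the small subunit 27 lower of 27. Rps15 read 8.92, 9.57, 7.28 and 11.16 in LE/orl and 13.78, 12.92, 13.57 and 13.17 in LE/wt, a difference of -4.13 ± 0.52 (SE, limma adjusted p = 2.95e-07). Rps4-titled, Rps10 and Eif3k differed by -4.42, -3.85 and -3.81. Eif4a1 read 10.09, 9.92, 10.26 and 11.50 in LE/orl and 7.72, 9.72, 8.06 and 8.62 in LE/wt (1.92 ± 0.35, limma adjusted p = 6.15e-05), and Eif4a2, Eif4g3 and Eif4g1 were higher by 1.24, 1.18 and 0.89. With the index as a covariate 34 members were lower and 7 higher. The share of all probe sets in this fit at GD19 is not given here, so these counts are not set against it. Eif4g3 was at 0.11 (0.79) in this fit. Rps15 was then at -1.78, Rps10 at -1.34, Eif3k at -2.50, Eif4a1 at 2.53 and Eif4g1 at 1.29. Markers moved with the strain at GD19 too, with 9 of 15 striated muscle and both endothelial probe sets lower in LE/orl and the macrophage marker C1qc at -3.69, and their part in the result was not tested.

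At GD20 the picture for the ribosomal proteins was the same in direction and that of eIF4 differed. In left gubernacula 76 members were lower and 5 higher in LE/orl, against 26.9% lower and 20.1% higher of all probe sets, and in right gubernacula 71 were lower and 6 higher, against 20.3% and 18.1%. Ribosomal proteins were lower in 55 of 67 on the left (median -0.98) and in 48 on the right (median -1.0). The sides come in part from the same fetuses and are no independent repeat. With the index as a covariate limma called 0 members on either side, with 2 higher and 2 lower on each at an unadjusted p under 0.05, and the ribosomal protein median was -0.07 on the left and 0.05 on the right. At this day the covariate separates the strains completely, and its slope comes mostly from LE/orl GD18 A and GD19 D. On the left, 9 of 15 striated muscle probe sets were lower in LE/orl (median -1.10), with a mean log2 signal of 10.86 to 11.63 in LE/orl and 11.89 to 12.28 in LE/wt. Of the 2 endothelial probe sets 1 was higher and 0 lower (median 0.67). Dnd1, listed as a germ cell marker, differed by -2.19, and by -1.16 at GD18 and -1.43 at GD19. Which cells give its signal in this organ is not known here. The part of these in the result was not tested.

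The lowest differences at GD20 left were those of Rpl24, Rpl36a, Rpsa and Rps19. Rpl24, a large subunit protein at the interface of the subunits, read 8.82, 8.27, 7.81 and 7.73 in LE/orl left gubernacula and 11.26, 11.02, 11.09 and 11.05 in LE/wt (-2.95 ± 0.51, limma adjusted p = 5.57e-05). Rpl36a read 7.47, 7.86, 8.72 and 7.41 in LE/orl and 10.66, 10.57, 10.63 and 10.61 in LE/wt (-2.75 ± 0.47, limma adjusted p = 5.56e-05). The LE/wt arrays lay close together in both and the LE/orl arrays well apart from them. Rps19, the protein mutated in Diamond-Blackfan anaemia in humans, read 11.09, 11.19, 12.22 and 11.72 in LE/orl and 14.32, 14.27, 14.31 and 14.16 in LE/wt (-2.71 ± 0.52, limma adjusted p = 1.74e-04), and Rpsa (1367569_at) differed by -2.74 ± 0.46 (limma adjusted p = 4.51e-05). Rps15 read 8.42, 9.49, 9.68 and 9.31 in LE/orl and 11.92, 11.72, 11.88 and 11.96 in LE/wt, a difference of -2.64. Its LE/wt level was lower than at GD18 and its LE/orl level was not called as changed.

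The higher members at GD20 left were Rpl7 (1375788_at) by 5.13 ± 1.01 (limma adjusted p = 2.07e-04), Ago1 by 1.55 ± 0.34 (5.96e-04), LOC365157, similar to L22, by 1.47 ± 0.26 (6.45e-05), Eif4g3 by 1.16 ± 0.27 (0.00115) and Aars1 by 0.76. LOC365157 read 4.07, 4.07, 3.86 and 4.55 in LE/wt, all under the minimum signal of 5, and 5.36 to 5.97 in LE/orl. Ago1 read 9.49, 8.85, 9.90 and 9.56 in LE/orl and 7.69, 8.27, 7.65 and 7.99 in LE/wt, with no overlap. Eif4g3 read 8.92, 9.17, 8.92 and 8.47 in LE/orl and 7.46, 7.90, 7.66 and 7.82 in LE/wt. With the index as a covariate Rpl7 (1375788_at) was at 0.00, Ago1 at -0.06 and Eif4g3 at -0.07. Eif4a1 read 9.86, 9.51, 9.61 and 10.15 in LE/orl and 9.89, 9.41, 9.90 and 9.99 in LE/wt, which overlap (-0.01, 95% interval -0.74 to 0.71). Of the eIF4 probe sets 1 was higher and 6 lower, Eif4g1 by -0.75 among them, and of the synthetases 1 was higher and 5 lower.

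**Figure D5:**
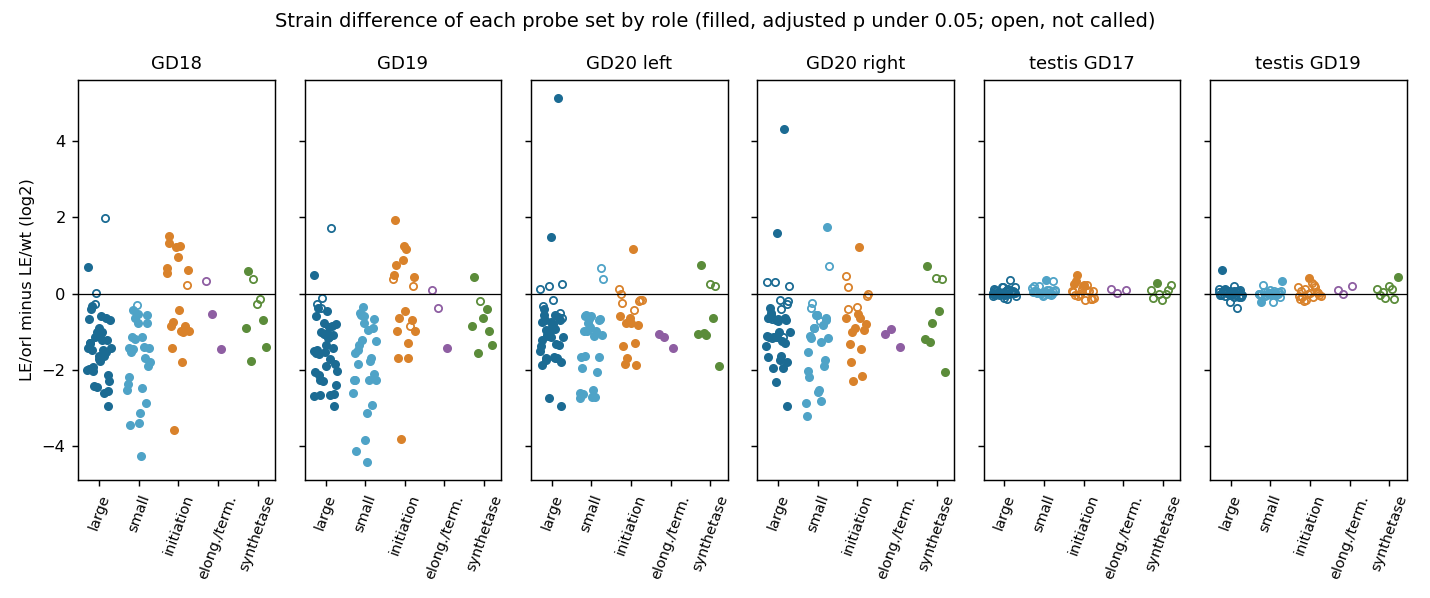
LE/orl minus LE/wt log2 difference of each probe set by role, in the 4 gubernaculum and 2 testis comparisons; filled points passed an adjusted p under 0.05, and the 4 probe sets outside these roles are not drawn. Large and small subunit points lie mostly below 0 in gubernaculum (medians of all ribosomal proteins -1.44, -1.48, -0.98 and -1.0), initiation factors on both sides of 0 at GD18 and GD19, and all roles close to 0 in testis.

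The change of the strain difference over the 3 days was tested by an F test in the same fit. It passed for 27 members, against 26.7% of all probe sets tested, so members changed about as often as other probe sets. For 17 of the 27 the difference was more positive at GD20 than at GD18, and for 10 more negative. Ribosomal proteins gave 11 more positive and 1 more negative of 67, and the eIF4 probe sets 0 and 4 of 10. Of all 8872 probe sets tested, 912 passed with a more positive and 1458 with a more negative difference. Eif4ebp1 had the lowest p, with a change of 2.42 ± 0.29 (limma adjusted p = 2.84e-07), followed by LOC365157 (2.48, 1.56e-05), Rps25 (2.17, 3.57e-05) and Rps4-titled (3.26, 1.03e-04). At GD20 all left values of Rps4-titled in both strains, and those of LOC365157 in LE/wt, lay under the minimum signal of 5. Rps25, a small subunit protein used by some internal ribosome entry sites, read 7.52, 8.78, 7.64 and 7.79 in LE/orl and 9.64, 9.90, 9.81 and 9.54 in LE/wt at GD18. At GD20 it read 8.92, 8.04, 8.15 and 8.42 in LE/orl and 8.14, 7.82, 7.85 and 8.17 in LE/wt, which overlap. Eif4g1 changed by -1.96, Eif4a2 by -1.59, Eif2s3 by -1.59 and Eif4a1 by -1.53.

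The days within each strain show which side moved. In LE/wt left gubernacula between GD20 and GD18, 11 members were higher and 28 lower, against 24.7% higher and 20% lower of all probe sets. Ribosomal proteins gave 20 lower and 2 higher, with a median of -0.28, the eIF3 subunits 3 lower of 4, and the eIF4 probe sets 6 higher of 10, with a median of 0.82. Eif4g1 read 9.33, 9.79, 9.66 and 9.51 at GD20 and 7.24, 7.86, 7.92 and 8.16 at GD18, with no overlap (1.78 ± 0.25, limma adjusted p = 1.64e-06). Eif2s3 was higher by 1.74 ± 0.22 (4.10e-07), Eef2 by 1.33 ± 0.23 (3.28e-05) and Eif4a2 by 1.17 ± 0.22 (1.07e-04). Eif4ebp1 was lower by -1.94 ± 0.20 (1.74e-08), Eif3k by -1.90 ± 0.38 (2.01e-04), Rps27-titled by -2.80 ± 0.41 (3.35e-06) and Rps4-titled by -4.26 ± 0.42 (8.06e-09). The GD20 values of Rps27-titled and Rps4-titled all lay under the minimum signal of 5, where values carry little information on level. On gubernaculum arrays Rps4-titled reached that minimum only in LE/wt males of GD18 and GD19 and on LE/orl GD18 array A. Rpl4 and Rpl30 were the ribosomal proteins that rose, by 0.68 and 0.56.

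In LE/wt the step lay between GD19 and GD20. Between GD19 and GD18 limma called 0 members, against 0.237% of all probe sets, and 2 members were higher and 0 lower at an unadjusted p under 0.05. Between GD20 and GD19, 12 members were higher and 30 lower, against 21.7% and 18% of all probe sets. In LE/orl between GD20 and GD18 only LOC365157 rose (1.03, limma adjusted p = 0.0119) and Eif5b-titled fell (-0.48, 0.0424), against 6.39% of all probe sets called. At GD18 LOC365157 read 3.81, 5.04, 4.89 and 4.55 in LE/orl, close to or under the minimum signal of 5. Leaving out LE/orl GD18 A and GD19 D gave 4 calls between these LE/orl days. The LE/wt GD18 and GD20 arrays also enter the strain comparisons. Striated muscle markers moved with the day in LE/wt, with 12 of 15 probe sets higher at GD20 and a mean log2 signal of 11.89 to 12.28 at GD20 and 10.51 to 11.06 at GD18. The red cell markers were lower, with 5.08 to 8.05 at GD20 and 8.91 to 12.42 at GD18. Both endothelial markers (median -2.13) and the macrophage marker C1qc (-2.94) were lower as well. The part of these cells in the result was not tested.

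Between the sexes at GD18 in LE/wt, 43 members were higher and 9 lower in males than in females, against 23.6% higher and 29.5% lower of all probe sets. Ribosomal proteins gave 35 higher and 1 lower, Rpl4 at -0.56, with a median of 0.55. Rpl29 read 12.53, 12.97, 12.93 and 12.62 in males and 9.96, 10.68, 10.23 and 10.05 in females (2.53 ± 0.27, limma adjusted p = 1.42e-08). Rps25 read 9.64, 9.90, 9.81 and 9.54 in males and 7.20, 6.76, 7.01 and 7.03 in females (2.72 ± 0.28, limma adjusted p = 7.94e-09). No arrays overlapped in either. Rps27-titled differed by 2.85 ± 0.41 (1.53e-06) and Rps4-titled by 3.46 ± 0.42 (1.24e-07), both with female values under the minimum signal of 5. In the index-adjusted fit 31 ribosomal proteins were higher and 3 lower, with a median of 0.40. The share of all probe sets in that fit is not given here. Both endothelial markers (median 1.44) and 5 of 15 striated muscle probe sets were higher in males, 1 muscle probe set was lower, and the macrophage marker C1qc differed by 1.52 without being called. The part of these cells in the result was not tested.

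Initiation factors ran in both directions between the sexes, with 4 higher and 7 lower of 19 in males. Counts in this paragraph stand against 23.6% higher and 29.5% lower of all probe sets, so initiation factors were called about as often as other probe sets. Eif4a1 read 8.62, 8.46, 8.66 and 8.85 in males and 11.82, 11.29, 12.00 and 12.00 in females, a difference of -3.13 ± 0.35 (SE, limma adjusted p = 3.41e-08). Eif2s3 read 7.69, 8.07, 7.85 and 7.97 in males and 10.15, 10.09, 9.82 and 10.01 in females (-2.13 ± 0.22, limma adjusted p = 7.96e-09). Females were above males on every array in both. Eif4g1 was lower in males by -1.84 ± 0.25 (5.66e-07), Eif4g2 (1388359_at) by -1.54 ± 0.16 (5.01e-09) and Eef2 by -1.32. Eif3k was higher in males by 2.33, Eif4ebp1 by 2.04 and Wars1, the synthetase for tryptophan, by 1.18. Of the eIF3 subunits 3 of 4 were higher and of the eIF4 probe sets 5 of 10 lower in males. The strain comparison at GD18, the sex comparison and the LE/wt comparison of days all use the LE/wt GD18 male arrays, so their values are set side by side only. The female index (-4.73 to -3.93) lay at the low end of the LE/wt range.

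Other genes of the translation apparatus were followed by lists, whose counts stand against 24.1% lower and 27.2% higher of all probe sets at GD18. Their titles came only from the authors' lists, of whose probe sets 37% were lower and 39.6% higher. Those lists were chosen on these arrays, so the direction of these counts is not independent evidence. At GD18, 38 of 43 probe sets titled mitochondrial ribosomal protein were lower in LE/orl and 2 higher, with a median of -1.30 against 0.06 for all probe sets, with the lowest p for Mrpl34 (-2.48 ± 0.22, limma adjusted p = 9.14e-10) and the lowest difference for Mrpl42 (-3.74). At GD20 left 33 of the 43 were lower and 0 higher. Between the sexes 24 were higher and 3 lower in males. Of 12 probe sets for ribosome biogenesis 7 were lower and 1 higher at GD18, with Polr1c, a subunit of RNA polymerases I and III, at -0.89 ± 0.15 and Gnl3, the nucleolar nucleostemin, at 1.54 ± 0.29 (7.00e-05). At GD20 left 10 of the 12 were lower. The list of mTORC1 and control of translation, which leaves out Eif4ebp1 and all other members, had 5 higher and 1 lower of 8 probe sets. Eef2k, the kinase that inactivates Eef2, rose by 3.44 ± 0.54 (7.63e-06), and Lamtor2, part of the lysosomal anchor of mTORC1, fell by 1.90 on the log2 scale.

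Among 4 genes of the integrated stress response, Ddit3 (-1.78 ± 0.18, limma adjusted p = 1.09e-08) and Atf4 (-1.22 ± 0.23, 8.05e-05), its transcription factors, were lower in LE/orl at GD18. In all 3 were lower and 1 higher. Of 9 probe sets for poly(A) binding and other oligopyrimidine messages 5 were lower, with Fau, a ubiquitin-like fusion to a small subunit protein, at -1.58 ± 0.26 (1.44e-05), and 3 higher, with Paip1, a partner of the poly(A) binding protein, at 1.93 ± 0.18 (1.64e-09). Of 8 for signal recognition and the translocon 4 were lower, with Srp14 at -0.92, and 2 higher, with Ssr3 at 2.73 ± 0.26 (2.91e-09), a share of higher probe sets near that of all. In the index-adjusted fit, where 17.4% of all probe sets were higher and 12.9% lower, 15 mitochondrial ribosomal protein probe sets were lower and 1 higher. Of the biogenesis list 2 were then lower and 1 higher, of mTORC1 1 lower and 4 higher, of the stress response 2 lower, of poly(A) binding 2 lower and 2 higher and of signal recognition 1 lower and 2 higher. Cell markers also differed between the strains at GD18. Of 15 striated muscle probe sets 9 were lower and 1 higher, with a mean log2 signal of 10.06 to 10.47 in LE/orl and 10.51 to 11.06 in LE/wt. Both endothelial markers were lower, with a mean of 6.43 to 7.41 in LE/orl and 7.66 to 8.56 in LE/wt, and so was the macrophage marker C1qc (-4.23). The part of these cells in the result was not tested.

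In the testis the members differed little between the strains. At GD17, 6 members were higher and 0 lower in LE/orl, against 7.24% higher and 11.2% lower of the 8013 probe sets tested, and the ribosomal protein median was 0.03. Eif5a read 11.49, 11.34, 11.42, 11.46 and 11.34 in LE/orl and 11.08, 11.19, 10.95, 10.59 and 10.86 in LE/wt, with no overlap (0.48 ± 0.10, limma adjusted p = 0.00213). Farsa read 7.54, 7.60, 7.68, 7.54 and 7.66 in LE/orl and 7.37, 7.38, 7.26, 7.28 and 7.31 in LE/wt (0.28 ± 0.06, limma adjusted p = 0.00138). These are small differences between tightly grouped arrays. Eif4a1 was higher by 0.26 ± 0.08 (0.0188), lost without LE/orl array C (0.0623), and Eif4e2 by 0.33 ± 0.11 (0.0339), a call lost in 8 of 10 fits that each left out 1 array. Eif4e and Rps4-titled were higher by 0.23 and 0.35. Without LE/orl array C or D, or LE/wt array C or D, 3 members were called in place of 6. Rps15, Rps10 and Eif3k, lower in LE/orl gubernaculum, had 95% intervals of -0.08 to 0.17, -0.09 to 0.17 and -0.18 to 0.17 here. At GD17 the index was -1.18 to -1.0 in LE/orl and -1.45 to -1.19 in LE/wt testis. Red cell markers were at 9.69 to 11.41 in LE/orl and 8.26 to 9.76 in LE/wt, and Leydig cell markers at 8.06 to 8.42 in LE/orl and 8.65 to 9.30 in LE/wt. The part of these in the result was not tested.

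At GD19, 4 testis members were higher and 2 lower in LE/orl, against 5.24% and 8.10% of all probe sets. Rpl38-titled read 12.88, 12.73, 12.73, 12.68 and 12.59 in LE/orl and 12.21, 12.07, 12.02, 12.08 and 12.13 in LE/wt, with no overlap (0.62 ± 0.07, limma adjusted p = 2.28e-06). Its symbols include a pseudogene. Sars1, Eif4a2 and Rps25 were higher by 0.43, 0.40 and 0.32, and Eif4ebp1 and Rps2 lower by -0.36 and -0.23. Without LE/orl array A or D, or LE/wt array A or C, 3 members were called. Both Leydig cell markers were lower in LE/orl (median -0.72), and their part in the result was not tested. The strain difference changed with day for 5 members, against 9.65% of all probe sets: Eif5a (-0.68, limma adjusted p = 0.00545), Rps4-titled (-0.57, 0.0274), Rps2 (-0.41, 0.013), Eif4a1 (-0.41, 0.021) and Rpl38-titled (0.55, 0.00178).

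Between GD19 and GD17 in LE/wt testis 9 members were higher and 17 lower, against 18.9% and 22.7% of all probe sets, with ribosomal proteins at 6 and 5 of 67 and initiation factors at 1 and 8 of 19. Eif4ebp1 read 8.44, 8.30, 8.63, 8.15 and 7.93 at GD19 and 7.46, 7.44, 7.54, 7.38 and 7.61 at GD17 (0.80 ± 0.11, limma adjusted p = 6.67e-06). Mrto4, a factor of large subunit assembly, read 7.79, 7.38, 7.87, 7.76 and 7.60 at GD19 and 8.32, 8.54, 8.30, 8.22 and 8.35 at GD17 (-0.67 ± 0.09, limma adjusted p = 5.11e-06). The days were apart in both. Rps4-titled, Etf1 and Iars1, for isoleucine, were lower by -0.67, -0.66 and -0.63, and Rps20, Rpl4 and Rpl24 higher by 0.24, 0.21 and 0.19. The call of Rpl24 was lost without LE/wt GD17 array C (0.056) or GD19 array E (0.0708). In LE/orl testis 20 members were higher and 26 lower at GD19, against 25.3% and 30.2% of all probe sets, and ribosomal proteins 15 and 11. Both Leydig cell markers were higher at GD19 in each strain, with a median of 1.59 in LE/orl and 1.60 in LE/wt. Red cell markers were lower, with a median of -3.38 in LE/orl (2 of 2 called) and -1.52 in LE/wt (1 of 2). Their part in the results was not tested.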

How the data were processed

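The authors' value table holds GCRMA signals on the log2 scale for 15923 probe sets, from 0.793 to 16.2. GCRMA is named in the submitters' processing notes. Their 3 deposited lists hold 3589, 1023 and 349 probe sets, each with a mean linear intensity for each group. These lists were used for titles and membership only. The authors built them, per their deposited methods, from moderated linear models in affylmGUI and an ANOVA in GeneSpring. The members and gene lists were chosen with earlier results of these data known. Symbols and promoters came from RefSeq tables of GRCr8.

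The 57 controls were left out. Each tissue was fitted with limma 3.58.1 in R 4.3.3, with all groups in 1 fit and no covariate, over probe sets at log2 5 or more in at least 3 gubernaculum or 5 testis arrays (8872 and 8013; all 101 members passed both). Adjustment was by Benjamini-Hochberg over all probe sets of a contrast, and members were called under 0.05, with 25 and 16 residual degrees of freedom. Differences are LE/orl minus LE/wt, male minus female and later minus earlier day. Named members are, in 7 contrasts, the 4 highest and 4 lowest differences among called members whose groups do not overlap, the 2 lowest p of each role at GD18, the 4 lowest p for the change over days, members sharing a symbol, and 2 genes per list. Other members are named to complete a role or a count and were chosen after their values were seen. Tables and figures used Python 3.11.15, pandas 2.3.3, numpy 2.4.6 and matplotlib 3.10.9.

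On simulated data with known changes the GD18 strain fit over 8872 probe sets recovered 20.9% of changes of 0.58 log2 units, 62.7% of 1 and 93.9% of 2. The GD17 testis fit over 8013 recovered 85.1%, 94% and 100%. The simulation changed 66 or 67 probe sets per size, far fewer than were called in either real comparison, and drew independent normal noise. Its shares are therefore not the sensitivity of the real fits. The number of arrays, 3 to 5 per group, limits the precision, and each array is 1 fetus. Array letters shared between groups were not found to pair the arrays: over the strain comparison at GD18 the deviations of 1 of 4 same-letter pairs correlated above 0.1. At GD20, left and right gubernacula of the same letter and strain are of 1 fetus, with correlations of 0.187 to 0.549 in LE/orl and -0.347 to 0.353 in LE/wt. The alternatives were other signal minimums, quantile normalisation, array weights, trended and robust variance, only the 2 groups compared, the index, the fetus or the letter in the fit, 1 probe set per gene, and leaving out arrays.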

Additional observations from a re-analysis of the deposited data

Results flagged for a closer look

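LE/orl GD18 array A stood apart from its group in the ribosomal protein mean, at 12.38 log2 units against 11.17 to 11.37 on the other 3 arrays, in the initiation factor mean, at 10.45 against 9.80 to 9.89, and in Rps10, at 11.84 against 8.85 to 9.32. Without it the strain difference of Rps10 at GD18 was -4.09 in place of -3.40. Of 121 groups of values examined, from 8 members and the role means, 8 had 1 array far from the others, 3 of them this array. Chance alone would mark about 1 in 20 groups.

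The other arrays far from their groups were LE/wt GD18 male array C for Rps15 (13.73 against 13.11 to 13.17), LE/wt GD18 female array C for Rps10 (11.55 against 11.95 to 11.98), LE/wt GD17 testis array B for the initiation factor mean (9.69 against 9.62 to 9.64), LE/wt GD19 testis array E for Eif2s3 (8.20 against 7.72 to 7.85) and LE/orl GD19 testis array E for Eif3k (9.67 against 10.07 to 10.15).

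The strain difference changed over the 3 days in gubernaculum for 27 members and with day in testis for 5, both by a test of the change itself.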

How the results depend on the processing

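Counts in this section are of members called. The shares of all probe sets called under each alternative are not given in it, so a changed count cannot be read as particular to the members. Adding the index to the fit changed the strain counts most: 38 members were called at GD18 in place of 91, 41 at GD19 in place of 90, and 0 at GD20 left and right in place of 81 and 77. At GD20 the index separates the strains, so this fit cannot tell one from the other. The fit takes its slope, the same for every day, mostly from LE/orl GD18 A and GD19 D. It turned the sign of Eif4b (1372124_at) at GD18 (0.42, limma adjusted p = 0.331) and of Rpl7 (1375788_at) at GD18 (-2.28, 0.0299). At GD20 left it left Rpl7 (1375788_at) at 0.00, Ago1 at -0.06 and Eif4g3 at -0.07, with no difference called. In the same fit the calls of Rpl24, Rpl36a, Rps19, Rpsa (1367569_at) and LOC365157 at GD20 left were lost, and those of Eef1d, Farsa, Sars1 and Rpl7 (1398917_at) at GD18.

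LE/orl GD20 minus GD18 had 2 calls. It had 1 with the stricter minimum of log2 7, with quantile normalisation or with the fetus as a random block, 0 with only the 2 groups compared (2 members higher and 2 lower at an unadjusted p under 0.05), 5 with array weights, and 4 with the index or without GD18 A and GD19 D. The strain counts in testis at GD17 became 12 with array weights and 10 with only the 2 groups compared, and at GD19 2 with only the 2 groups. With array weights the change over days had 53 calls in gubernaculum and 9 in testis. The cause of these changes was not tested. Quantile normalisation moved the ribosomal protein median at GD20 to -0.75 on the left and -0.84 on the right.

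Leaving out each array in turn gave 85 to 94 calls at GD18, 85 to 93 at GD19, 75 to 82 at GD20 left, 64 to 71 at GD20 right, 46 to 49 between the sexes, 34 to 37 for LE/wt days, 1 to 2 for LE/orl days, 3 to 7 in testis at GD17 and at GD19, 21 to 28 for LE/wt and 36 to 44 for LE/orl testis days. For LE/orl days the 1 call came without GD18 array B, C or D or GD20 array C. The array letters as a replicate block gave 91 calls at GD18, 90 at GD19, 82 at GD20 left, 75 at GD20 right, 49 between the sexes, 37 for LE/wt days, 6 in testis at GD17 and 5 at GD19, and moved no count past 1.5 times. Apart from the fits that left out each array in turn, 105 counts of calls under an alternative stayed within 1.5 times, those with the letters included. A further 7 counts rose and 9 fell by more than that. The 3 to 5 arrays of a group limit what small changes can be seen.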
